A study of Mus musculus with 6 samples.

Results

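Ribosome biogenesis is the making of ribosomal subunits in the nucleolus, and the genes described here encode its machinery. The set was given as 43 named mouse genes, chosen by function with earlier results of these data known. The deposited table has a row for 42 of them, out of 17997 genes listed, and Noc2l was not analysed here. All 42 were above 1 CPM (counts scaled to library size by the authors) in every library, so none depended on the filter on low values, and they were tested among 12657 genes. By role they fell into 7 snoRNP proteins, 13 factors of the small subunit processome and of 40S maturation, 13 factors of 60S assembly, and 9 genes of RNA polymerase I and its factors.

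RNA was measured in LT-HSC, the long-term stem cells that sustain blood formation in the bone marrow, sorted from C57BL/6 mice aged 8 to 11 weeks. There were 3 genotypes, each with 2 biological replicates. Mx, the reference, had the genotype MxCRE, a Cre recombinase under the interferon-inducible Mx promoter. The Flt3ITD group carried Flt3-ITD, an internal tandem duplication in the receptor tyrosine kinase gene Flt3, and the NPMc_Flt3ITD group carried NPMc+, a nucleophosmin mutant that is held in the cytoplasm, together with FLt3-ITD. The labels state Cre for the reference genotype and name no Cre for the mutant groups, and cells with NPMc+ alone were not analysed here. The sources used here do not say whether Cre was induced or whether animals were pooled.

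RNA polymerase I transcribes the ribosomal DNA into one long precursor, with the help of UBTF at the gene, the SL1 complex at the promoter, and RRN3, which brings the polymerase there. Small nucleolar ribonucleoproteins (snoRNPs) then modify the precursor at chosen bases, box C/D particles by methylation and box H/ACA particles by pseudouridylation. The small subunit processome assembles on the emerging transcript and becomes the 40S subunit, while a separate series of factors builds the 60S subunit. MYC is a known activator of many of these genes, and nucleophosmin, the protein altered in NPMc+, is itself a nucleolar factor. In stem cells of the blood, a low rate of protein synthesis is a known feature of the resting state.

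Across libraries, 15618802 (Flt3ITD replicate 1) to 37038893 (NPMc_Flt3ITD replicate 2) reads were recovered from the deposited values, and 1 read was worth 0.0289 to 0.0657 CPM. Correlations of log2(CPM + 1) over all 17997 genes listed were 0.981 to 0.984 within groups and 0.964 to 0.978 between groups. All 10 LT-HSC markers had reads in every library. Their summed level was 1961 and 1990 CPM for Mx, 992 and 1075 for Flt3ITD, and 1454 and 1172 for NPMc_Flt3ITD. In bulk RNA of this kind, fewer cells of a type and less RNA per cell cannot be told apart.

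To show the regions from which the genes that passed the main test are read, the 100 bases just upstream of the annotated start are printed for the 4 of them that have a RefSeq promoter window (build GRCm38.p6, in the direction of the gene). The capitals mark CCGGAAGT, the motif of ETS family factors, and sequences without capitals hold none of the 4 motifs searched.
Nhp2 (chr11:51619673-51619772, plus strand): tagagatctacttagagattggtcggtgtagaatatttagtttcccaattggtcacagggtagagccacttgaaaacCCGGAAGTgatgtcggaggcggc
Gnl3 (chr14:31019132-31019231, minus strand): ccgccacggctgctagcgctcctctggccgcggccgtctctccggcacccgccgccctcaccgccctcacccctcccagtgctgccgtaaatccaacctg
Rrp9 (chr9:106477209-106477308, plus strand): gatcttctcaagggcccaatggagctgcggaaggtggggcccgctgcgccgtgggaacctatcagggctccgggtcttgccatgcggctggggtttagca
Nolc1 (chr19:46075747-46075846, plus strand): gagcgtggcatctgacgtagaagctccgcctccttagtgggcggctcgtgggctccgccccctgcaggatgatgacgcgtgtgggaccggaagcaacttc

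Of the 42 members, 38 matched RefSeq promoters, with 46 windows of 250 bases upstream of a start, while Bop1, Rrp12, Rrs1 and Tcof1 had no entry. The motifs were read on both strands, and none shares a window with another in these members. The E-box CACGTG, the motif bound by MYC and its relatives, was in the windows of 3 members, which is 7.89% of the matched members against 9.92% of tested genes and 6.86% of all genes with a promoter. Those members were Nop2, with the motif nearest the start at -60, Rrn3 at -48 and Utp18 at -20. The ETS motif CCGGAAGT was in 4 members or 10.5%, namely Nhp2 at -23, Gar1 at -44, Heatr1 at -16 and Polr1c at -42, against 6.80% of tested genes. GCATGCGC, a part of the NRF1 motif, was in Nob1 alone at -19 (2.63% against 5.14%), and AAGATGG, of YY1, was in 0 members against 5.30% of tested genes. The median GC content was 57.4%, against 59.6% over the windows of tested genes. A match is a description of letters in the window and not of binding.

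The genes span a wide range of abundance in reference LT-HSC, as the plot of levels per transcript length shows. Counted per kilobase of the principal annotated transcript, the mean level in Mx ran from 4.76 CPM per kb for Utp20 to 149 CPM per kb for Nop58. The snoRNP proteins held the top of the order, with Nop10 at 143, Nop56 at 123, Nhp2 at 79.5 and Dkc1 at 78.3 CPM per kb. Within the H/ACA core, which joins dyskerin (Dkc1), Nhp2, Nop10 and Gar1 in a particle, the Gar1 transcript stood apart at 12.1 CPM per kb. Among polymerase genes, the largest subunit Polr1a was lowest at 4.82 CPM per kb, Polr1b and Polr1e were at 14.5 and 14.6, and Polr1c, which RNA polymerase III shares, was at 41.0. The deposited table was counted with an annotation not named in the sources used here, so these lengths are approximate.

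**Figure D1:**
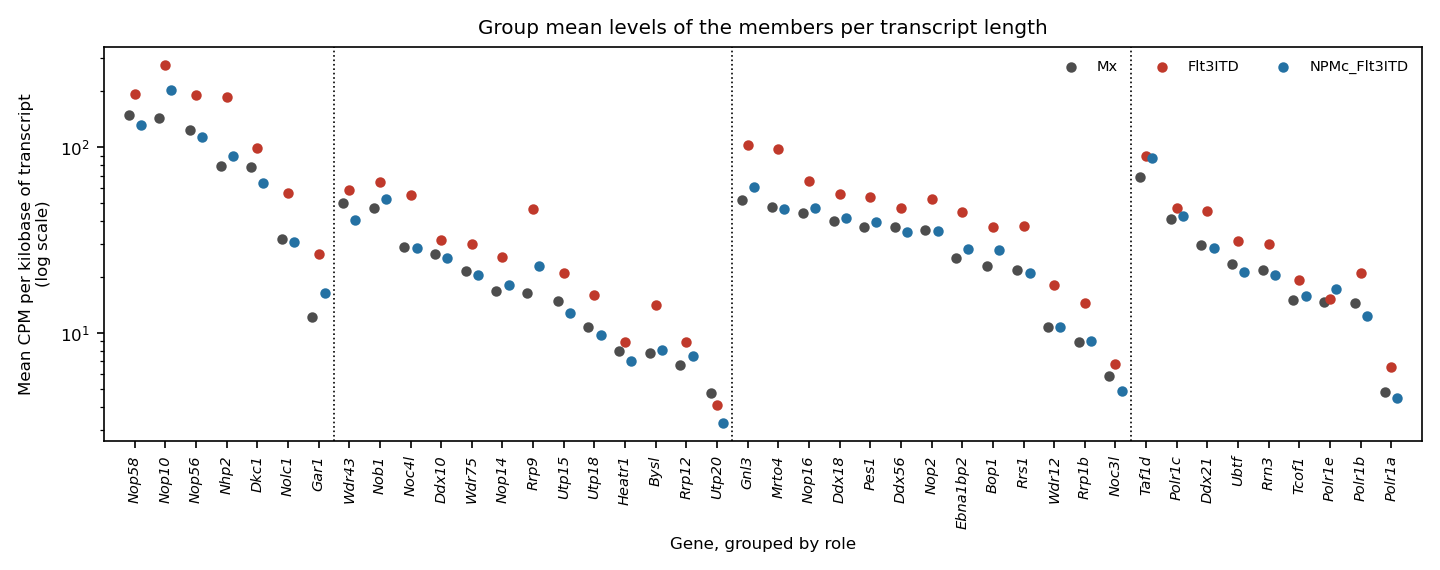
Mean level of each of the 42 genes per kilobase of transcript (CPM per kb, log scale) in the 3 genotypes, ordered within role by the Mx level and separated by dotted lines. Flt3ITD has the highest group mean for 40 of 42 genes, the exceptions being Utp20 (highest in Mx) and Polr1e (highest in NPMc_Flt3ITD).

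Taken over the whole set, the transcripts were more abundant in Flt3ITD than in either other genotype. The summed level of the 42 genes was 3472 and 3458 CPM for Mx, 5078 and 5302 for Flt3ITD, and 3202 and 3711 for NPMc_Flt3ITD. Both Flt3ITD libraries lay above the other 4, and the Mx values lay between those of the NPMc_Flt3ITD libraries. Gene by gene, both Flt3ITD libraries exceeded the other 4 in 31 of 42 members (73.8%), a pattern seen in 16.3% of all tested genes. The group mean was highest in Flt3ITD for 40 members (95.2%, against 36.7% of all tested genes). It was lowest in NPMc_Flt3ITD for 23 (54.8%, against 27.7%) and lowest in Mx for 19 (45.2%, against 34.7%). With Flt3ITD highest in 40, the lowest places were bound to fall mostly to the other groups. Replicates of a genotype differed by a median of 0.17 (Mx), 0.30 (Flt3ITD) and 0.31 (NPMc_Flt3ITD) on the log2 scale, disregarding sign.

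**Figure D2:**
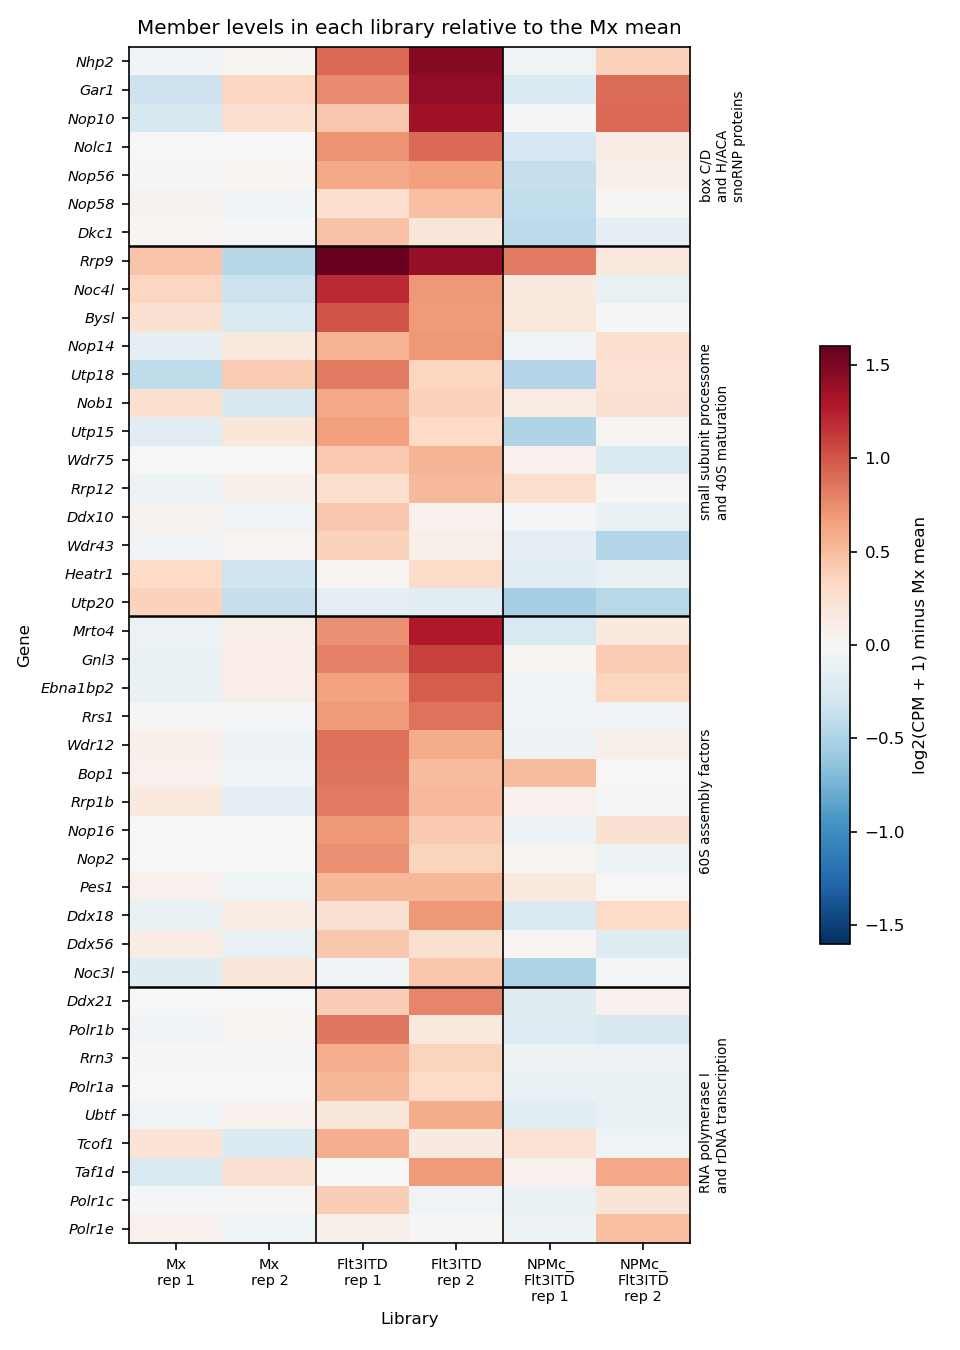
Level of each of the 42 genes in each library, as log2(CPM + 1) minus the mean of the 2 Mx libraries, grouped by role and ordered within role by the Flt3ITD value. Red is above and blue below the Mx mean. The Flt3ITD columns are red in nearly every line, with Utp20 below the Mx mean in both.

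The first comparison asks what the receptor duplication alone was associated with. In Flt3ITD against Mx, 5 members rose and 0 fell (limma, Benjamini-Hochberg adjusted p under 0.05, over all 12657 genes), where 2.12% of all genes were called higher and 2.43% lower. The genes that rose were Nhp2, Gnl3, Rrp9, Nolc1 and Rrs1, from 3 of the 4 roles. At an unadjusted p under 0.05, 23 members were higher, against 12.0% of all genes. The 2 groups did not overlap in 34 members, all higher in Flt3ITD, against 26.6% of all genes, and the members' median log2 fold change was 0.52 against 0.01 for all tested genes. In all, 41 of 42 members had a log2 fold change above 0, against 50.3% of all genes. The number of calls depended on the fit. Replicate numbers were taken to pair the libraries, which was read from the values and is not stated by the labels. With replicate number as a block, 22 members passed, all higher, where 10.3% of all genes were higher and 8.21% lower. On the recovered reads edgeR called 0 members (1.09% of all genes higher) and DESeq2 called 14, all higher (5.94%). Without any 1 of the 4 Mx and Flt3ITD libraries the count was 0, and without either NPMc_Flt3ITD library it was 2, while the median log2 fold change stayed between 0.52 and 0.58.

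**Figure D3:**
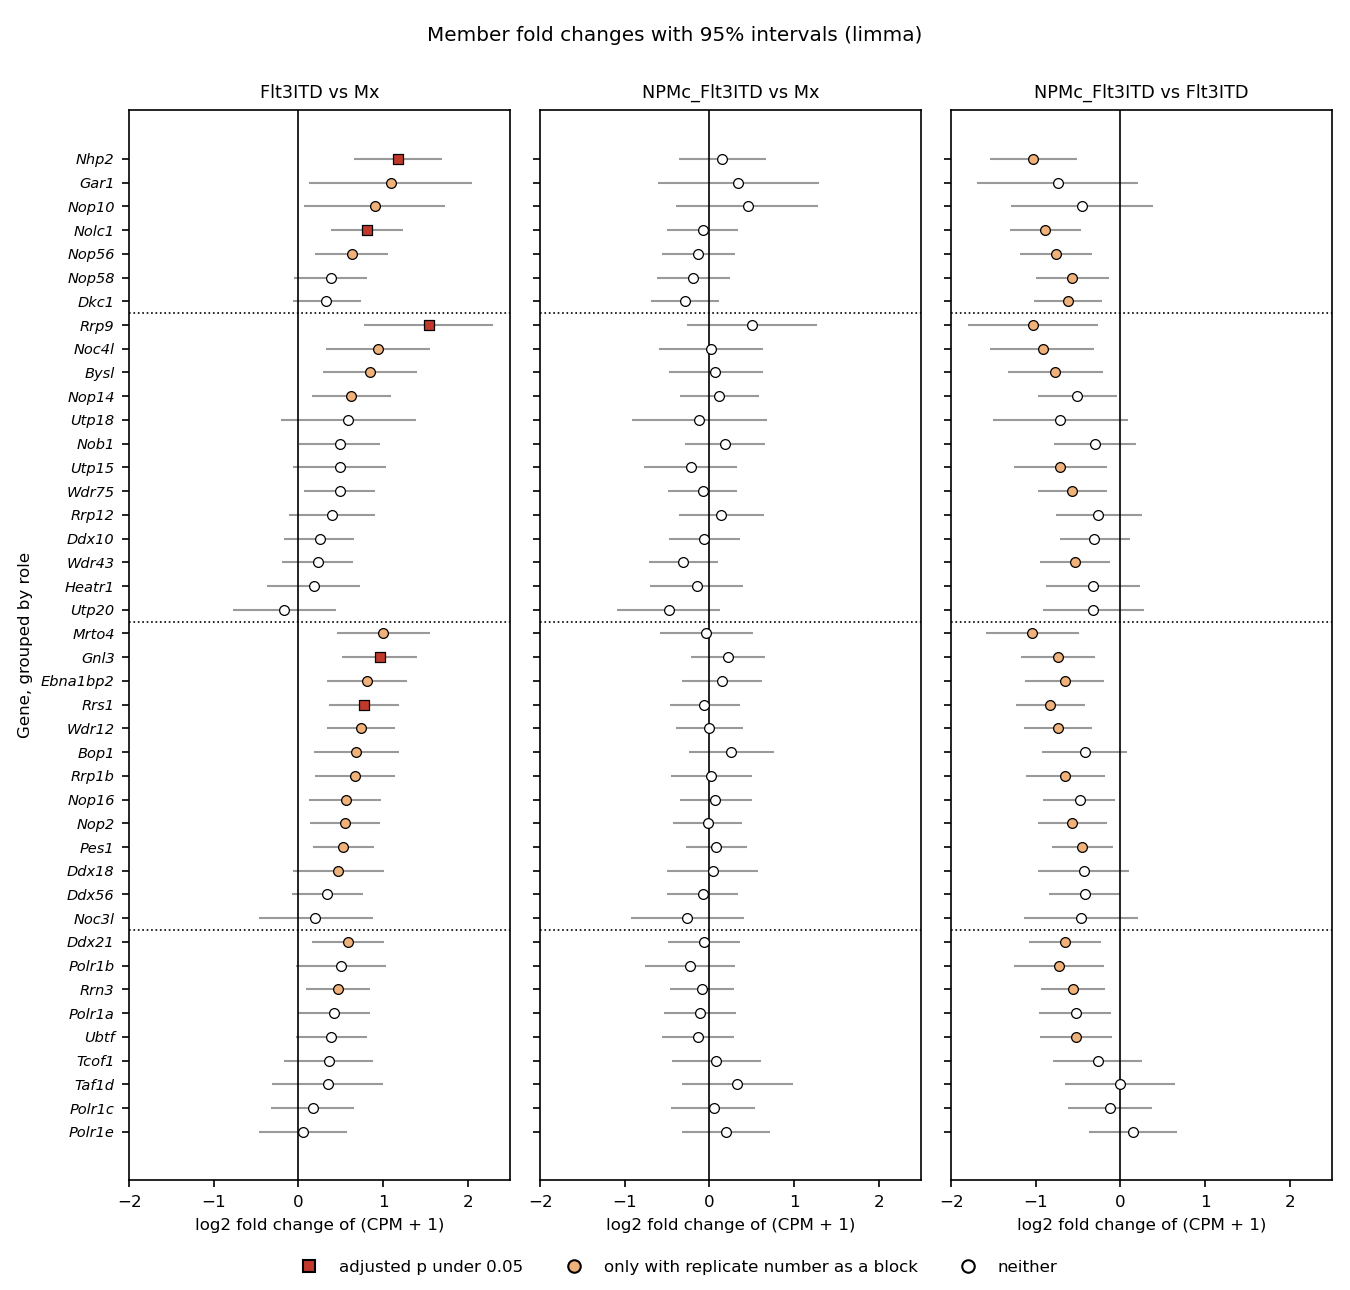
log2 fold changes of (CPM + 1) for the 42 genes in the 3 comparisons, with 95% intervals from limma as lines. Red squares mark the 5 genes that passed at an adjusted p under 0.05, orange points those that passed only with replicate number as a block (17 in Flt3ITD against Mx, 23 in NPMc_Flt3ITD against Flt3ITD), and white points the rest.

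The snoRNP proteins had the largest median change of the 4 roles, 0.81 on the log2 scale. All 7 were higher in both Flt3ITD libraries than in both Mx libraries, against 26.6% of all genes. Nhp2, the RNA-binding protein of the H/ACA core, was at 80.7 and 85.1 CPM for Mx, 156 and 229 for Flt3ITD, and 79.5 and 107 for NPMc_Flt3ITD. Both Flt3ITD libraries were the highest of the 6, and the other groups overlapped. Its log2 fold change against Mx was 1.18 ± 0.23 (SE, limma adjusted p = 0.0313). Nolc1, the Nopp140 chaperone that binds both classes of snoRNP, was at 116 and 117 CPM for Mx, 193 and 220 for Flt3ITD, and 96.0 and 127 for NPMc_Flt3ITD. Here too the Flt3ITD pair stood clear of all others (0.81 ± 0.18 against Mx, limma adjusted p = 0.0460).

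Nop56, a scaffold of box C/D particles, passed only with the block. Its level was 226 and 235 CPM for Mx, 351 and 364 for Flt3ITD, and 178 and 247 for NPMc_Flt3ITD (log2 fold change 0.63 against Mx, limma adjusted p = 0.0906, with the block 0.0101). Nop10 and Gar1, also proteins of the H/ACA core, were higher in replicate 2 than in replicate 1 in every genotype. Nop10 was at 131 and 187 CPM for Mx, 212 and 403 for Flt3ITD, and 155 and 295 for NPMc_Flt3ITD (adjusted p = 0.187, with the block 0.00224). Gar1 was at 11.7 and 19.2 CPM for Mx, 26.1 and 41.7 for Flt3ITD, and 12.8 and 28.8 for NPMc_Flt3ITD (adjusted p = 0.166, with the block 0.0132). In both genes the second NPMc_Flt3ITD library exceeded the first Flt3ITD library, so those groups overlapped. The 2 members that passed in neither fit were Nop58, the partner of Nop56, with a log2 fold change of 0.38 (95% interval -0.05 to 0.81), and Dkc1, the pseudouridine synthase, with 0.33 (-0.07 to 0.74).

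In the small subunit group, 1 of 13 genes rose, against 2.12% of all genes (10.3% with the block). The median log2 fold change was 0.49. For 10 of 13 the libraries did not overlap, all higher in Flt3ITD, against 26.6% of all genes. Rrp9, a protein specific to the U3 snoRNP that guides the first cuts of the precursor, had the largest change of all 42. It was at 34.3 and 17.7 CPM for Mx, 81.0 and 66.8 for Flt3ITD, and 44.8 and 27.9 for NPMc_Flt3ITD. Replicate 1 exceeded replicate 2 in each genotype, and both Flt3ITD libraries were above all others (1.54 ± 0.34 against Mx, limma adjusted p = 0.0433). Noc4l, Bysl and Nop14, which act in the assembly and release of the pre-40S particle, passed only with the block. Noc4l was at 74.4 and 45.9 CPM for Mx and at 135 and 94.8 for Flt3ITD (log2 fold change 0.94, limma adjusted p = 0.0820, with the block 0.00344). Bysl had a log2 fold change of 0.84 (adjusted p = 0.0849, with the block 0.0130) and Nop14 one of 0.62 (0.117, with the block 0.0238).

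The other 9 small subunit genes passed in neither fit, with log2 fold changes from -0.17 to 0.59. They include the factors Utp15, Wdr43, Wdr75 and Heatr1, which join the processome early and link it to transcription of the ribosomal DNA, the endonuclease Nob1, which makes the final cut of the 18S rRNA, and Rrp12, Ddx10 and Utp18. Utp20, a large scaffold protein, was the only member below 0. It was at 52.7 and 31.4 CPM for Mx, 36.4 and 35.9 for Flt3ITD, and 27.9 and 29.7 for NPMc_Flt3ITD. The Flt3ITD values lay within the range of the Mx values (-0.17, 95% interval -0.77 to 0.44).

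Of the 13 genes of 60S assembly, 2 rose, and with the block 11 passed, the most of any role. Among all genes 2.12% were called higher (10.3% with the block). The median log2 fold change was 0.67. In 12 of 13 genes the libraries did not overlap, all higher in Flt3ITD, against 26.6% of all genes. Gnl3, or nucleostemin, a nucleolar GTPase abundant in stem and cycling cells, was at 94.0 and 109 CPM for Mx, 178 and 218 for Flt3ITD, and 104 and 134 for NPMc_Flt3ITD (0.96 ± 0.19 against Mx, limma adjusted p = 0.0358). Rrs1, which helps to bring the 5S particle into the pre-60S subunit, was at 45.2 and 43.9 CPM for Mx, 72.0 and 82.2 for Flt3ITD, and 42.8 and 42.9 for NPMc_Flt3ITD (0.77 ± 0.18, limma adjusted p = 0.0493). In both genes the Flt3ITD libraries were the highest of the 6, and for Rrs1 the other 4 libraries differed by little.

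Mrto4, a relative of the ribosomal stalk protein that holds its place on the pre-60S particle, was at 41.5 and 47.1 CPM for Mx, 73.8 and 109 for Flt3ITD, and 37.3 and 49.5 for NPMc_Flt3ITD. Its change came close to the threshold (95% interval of the log2 fold change 0.45 to 1.55, limma adjusted p = 0.0540, with the block 0.00351). Ebna1bp2, an early pre-60S factor, was at 69.3 and 81.1 CPM for Mx, 118 and 148 for Flt3ITD, and 72.1 and 95.5 for NPMc_Flt3ITD (0.81, adjusted p = 0.0622, with the block 0.00371). The Flt3ITD libraries of both genes stood above all others.

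The PeBoW complex, in which Pes1, Bop1 and Wdr12 work together on the processing of the 28S and 5.8S rRNA, had its highest levels in Flt3ITD for all 3 genes. Wdr12 was at 114 and 101 CPM for Mx, 198 and 163 for Flt3ITD, and 101 and 114 for NPMc_Flt3ITD (log2 fold change 0.74, limma adjusted p = 0.0523, with the block 0.00704). Pes1 was at 114 and 103 CPM for Mx, 157 and 157 for Flt3ITD, and 121 and 109 for NPMc_Flt3ITD (0.53, adjusted p = 0.0938, with the block 0.0174). Bop1 was at 59.8 and 54.1 CPM for Mx, 104 and 81.5 for Flt3ITD, and 81.4 and 57.3 for NPMc_Flt3ITD (0.68, adjusted p = 0.111, with the block 0.0133). The first NPMc_Flt3ITD library of Bop1 came within 1 CPM of the second Flt3ITD library, while the other 2 genes had a clear gap. With the block, Rrp1b, Nop2 (an rRNA methyltransferase), Nop16 and the helicase Ddx18 also passed, with log2 fold changes of 0.67, 0.55, 0.56 and 0.47. Ddx56, another helicase, was at 0.34 (95% interval -0.08 to 0.76) and Noc3l at 0.20 (-0.47 to 0.88).

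RNA polymerase I and its factors had the smallest median, 0.39 on the log2 scale, and 0 of 9 genes passed in the limma fit (2 at an unadjusted p under 0.05, 0 by edgeR and 1 by DESeq2). The shares of all genes higher were 2.12% in limma, 12.0% at an unadjusted p under 0.05, 1.09% by edgeR and 5.94% by DESeq2. With the block 2 passed, Ddx21 and Rrn3, where 10.3% of all genes were higher. Ddx21, a helicase that acts at ribosomal DNA and on snoRNAs, was at 140 and 141 CPM for Mx, 185 and 243 for Flt3ITD, and 123 and 147 for NPMc_Flt3ITD (0.58, limma adjusted p = 0.107, with the block 0.0138). Rrn3 was at 78.7 and 76.8 CPM for Mx, 117 and 99.9 for Flt3ITD, and 73.3 and 72.8 for NPMc_Flt3ITD (0.47, adjusted p = 0.139, with the block 0.0434). In both genes the Flt3ITD libraries were the highest of the 6.

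The polymerase subunits did not all show the same order. Polr1b, the second largest, was at 56.1 and 59.4 CPM for Mx, 104 and 65.0 for Flt3ITD, and 50.1 and 48.1 for NPMc_Flt3ITD. Polr1a was at 44.3 and 44.5 CPM for Mx, 64.5 and 55.6 for Flt3ITD, and 41.0 and 41.1 for NPMc_Flt3ITD. For these catalytic subunits the groups stood in the order Flt3ITD, Mx, NPMc_Flt3ITD with no overlap, yet their log2 fold changes of 0.50 (95% interval -0.03 to 1.03) and 0.42 (-0.00 to 0.85) passed in neither fit. Polr1c was at 53.1 and 54.7 CPM for Mx and 71.4 and 51.7 for Flt3ITD (0.17, -0.33 to 0.66), and Polr1e at 46.0 and 41.4 against 46.4 and 44.3 CPM (0.05, -0.47 to 0.57). Both of these overlapped between groups.

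Of the promoter factors, Ubtf was at 105 and 116 CPM for Mx, 125 and 167 for Flt3ITD, and 98.5 and 102 for NPMc_Flt3ITD (0.39, 95% interval -0.03 to 0.81). Taf1d, a subunit of SL1, was at 65.7 and 92.5 CPM for Mx, 78.3 and 126 for Flt3ITD, and 81.5 and 119 for NPMc_Flt3ITD, higher in replicate 2 of every genotype. Tcof1, the treacle protein that holds UBTF and the polymerase at the ribosomal DNA, had a log2 fold change of 0.36 (-0.17 to 0.88). Taf1d and Tcof1 overlapped between groups.

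The second comparison, NPMc_Flt3ITD against Mx, asks how the combined genotype stood against the reference. It called 0 members in either direction (limma; 0.514% of all genes were called higher and 0.656% lower). At an unadjusted p under 0.05 there were 0 of 42, against 12.4% of all genes. With the block 0 passed as well (2.62% of all genes were higher and 2.82% lower), and edgeR (0.395% and 0.427%) and DESeq2 (1.74% and 2.61%) each called 0 members. The median log2 fold change was -0.01 (range -0.48 to 0.50), against 0.01 for all genes, with 20 members above 0 and 22 below (51.1% of all genes above). The 95% intervals of single genes differed in width, from -0.28 to 0.44 for Pes1 to -0.61 to 1.30 for Gar1, and a p that missed the threshold does not show that the groups were alike.

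Within this comparison 8 members had libraries that did not overlap, all lower in NPMc_Flt3ITD, against 22.1% of all genes lower, and 0 were higher, against 20.4%. The share of members that were lower was thus no larger than that of all genes. The 8 were Dkc1, Utp20, Wdr43, Rrs1, Polr1a, Polr1b, Ubtf and Rrn3, and their spread over the roles was not tested. Their log2 fold changes ran from -0.48 to -0.06, and none passed the test. Dkc1 was at 224 and 216 CPM for Mx, 306 and 251 for Flt3ITD, and 164 and 197 for NPMc_Flt3ITD (-0.29, 95% interval -0.69 to 0.11). Dkc1 lies on the X chromosome, and the libraries differed in the X-inactivation transcript Xist, at 1007 and 1038 CPM for Mx, 37.2 and 547 for Flt3ITD, and 259 and 625 for NPMc_Flt3ITD. Ddx3y, a gene of the Y chromosome, had reads in every library too, at 20.4 and 24.8 CPM for Mx, 63.6 and 32.8 for Flt3ITD, and 61.1 and 46.9 for NPMc_Flt3ITD. The part of the sex of the animals in the Dkc1 values, or in those of other members, was not tested.

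The third comparison sets NPMc_Flt3ITD against Flt3ITD and is also the test of whether the mutant groups differed in their distance from Mx. It shares its libraries with the other comparisons and so is not separate support for them. In limma 0 members passed, where 0.277% of all genes were called higher and 0.901% lower. At an unadjusted p under 0.05 there were 27 of 42, all lower in NPMc_Flt3ITD, against 10.3% of all genes. With the block 23 passed, all lower, where 7.07% of all genes were lower and 4.88% higher. DESeq2 called 11, all lower (4.85% of all genes), and edgeR called 0 (0.561%). The groups did not overlap in 34 members, all lower in NPMc_Flt3ITD, against 23.8% of all genes, and 0 were higher, against 24.4%.

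The median log2 fold change in this comparison was -0.56, against 0.03 for all genes, and 1 of 42 members was above 0, against 52.1% of all genes. By role the medians were -0.74 for the snoRNP proteins, -0.54 for the small subunit, -0.57 for the 60S subunit and -0.53 for RNA polymerase I. With the block 5 of 7, 6 of 13, 8 of 13 and 4 of 9 genes passed, all lower, against 7.07% of all genes. The smallest adjusted p-values belonged to Nolc1 (-0.89 ± 0.18, limma adjusted p = 0.0614, with the block 0.00297) and Rrs1 (-0.83 ± 0.18, adjusted p = 0.0698, with the block 0.0109). Next came Nhp2 (-1.03, adjusted p = 0.0724, with the block 0.00218), Mrto4 (-1.04, adjusted p = 0.0768, with the block 0.00382) and Wdr12 (-0.74, adjusted p = 0.0786, with the block 0.0105). Their values in every library are those given above, with each NPMc_Flt3ITD library under each Flt3ITD library.

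In the other roles, Noc4l had the smallest p of the small subunit genes and Ddx21 that of the polymerase group. Noc4l was at 65.3 and 53.7 CPM in NPMc_Flt3ITD against 135 and 94.8 CPM in Flt3ITD (-0.92, limma adjusted p = 0.122, with the block 0.00512). Ddx21 had a log2 fold change of -0.65 (adjusted p = 0.118, with the block 0.0129). The Flt3ITD libraries of both genes were the higher ones. Nop58, Dkc1, Utp15, Wdr43, Wdr75, Polr1b and Ubtf passed here with the block, at log2 fold changes from -0.73 to -0.53.

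The 8 members whose groups overlapped here were Nop10, Gar1, Noc3l, Ddx18, Polr1c, Polr1e, Taf1d and Tcof1. Taf1d had a log2 fold change of -0.01 (95% interval -0.66 to 0.64). Polr1e was the only member above 0, at 41.3 and 61.5 CPM in NPMc_Flt3ITD against 46.4 and 44.3 CPM in Flt3ITD (0.15, -0.37 to 0.67). Its high value came from 1 of the 2 NPMc_Flt3ITD libraries.

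**Figure D4:**
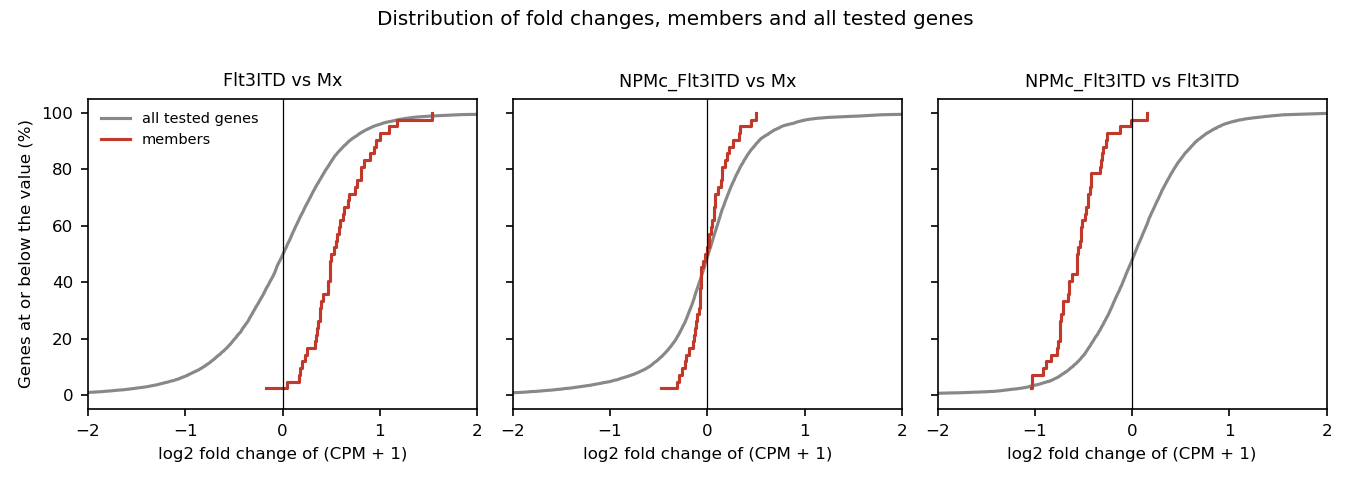
Share of genes (%) at or below each log2 fold change of (CPM + 1), for the 42 members (red steps) and all 12657 tested genes (grey), in the 3 comparisons. The members' curve lies to the right of the grey curve in Flt3ITD against Mx (medians 0.52 and 0.01), close to it in NPMc_Flt3ITD against Mx (-0.01 and 0.01), and to the left in NPMc_Flt3ITD against Flt3ITD (-0.56 and 0.03).

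Taken by replicate number, the same libraries gave the differences below, which are not separate support for those above. For replicate 1 alone, the members' median difference between Flt3ITD and Mx was 0.60 on the log2 scale, and for replicate 2 alone it was 0.55. In both pairs 38 of 42 members were higher in Flt3ITD, against 35.8% of all genes. The 34 members whose libraries did not overlap were bound to be among them. Between NPMc_Flt3ITD and Flt3ITD the medians were -0.65 and -0.47, with 39 members lower in both pairs, against 33.3% of all genes. Here too the 34 members without overlap were bound to be counted. Between NPMc_Flt3ITD and Mx they were -0.09 and 0.08, of opposite sign.

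Outside the 42 members, 119 further genes of the same pathway were examined in 5 lists. In Flt3ITD against Mx, 7 of them rose and 0 fell (2.12% of all genes were called higher and 2.43% lower), with a median log2 fold change of 0.40. With the block 35 were higher and 1 lower, against 10.3% and 8.21% of all genes. Exosc8, a ring subunit of the RNA exosome that trims rRNA precursors, was at 43.5 and 50.2 CPM for Mx, 96.8 and 104 for Flt3ITD, and 48.4 and 58.0 for NPMc_Flt3ITD (1.09 ± 0.19 against Mx, limma adjusted p = 0.0237). Rpf2, the binding partner of Rrs1, was at 40.8 and 42.8 CPM for Mx, 90.3 and 81.9 for Flt3ITD, and 54.3 and 42.7 for NPMc_Flt3ITD (1.02 ± 0.19, limma adjusted p = 0.0305). The Flt3ITD libraries of Rpf2, like those of Rrs1, were the 2 highest of 6.

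Nop9, a factor of the small subunit known from yeast, had a log2 fold change of 1.04 (limma adjusted p = 0.0305), and Eif6, which keeps the 60S subunit from joining the 40S too early, one of 0.88 (adjusted p = 0.0367). The other genes that rose were Pno1, Polr2e and Exosc3. Among the 119, 0 passed without any 1 of the Mx and Flt3ITD libraries and 3 without either NPMc_Flt3ITD library, while edgeR called 3 higher (1.09% of all genes) and DESeq2 19 (5.94%). By list, 2 of 42 other small subunit factors, 2 of 42 other 60S factors, 2 of 12 exosome genes and 1 of 12 other polymerase I genes rose, with medians of 0.41, 0.43, 0.48 and 0.49. The polymerase I gene that rose was Polr2e, a subunit that RNA polymerase III shares. Its call is thus not particular to polymerase I. The 11 subunits of RNA polymerase III, which makes the 5S rRNA and transfer RNAs, had a median of 0.09 and 0 calls in limma, edgeR and DESeq2. At an unadjusted p under 0.05 in limma there were 2, against 2991 of all 12657 genes. With the block 1 was higher and 1 lower. In NPMc_Flt3ITD against Flt3ITD, 0 of the 119 passed in limma, and the median was -0.38. At an unadjusted p under 0.05 there were 39, against 2384 of all 12657 genes. With the block 27 were lower (7.07% of all genes), and by DESeq2 16 (4.85%), while edgeR called 0. Against Mx, NPMc_Flt3ITD had 0 calls among the 119 in limma and in edgeR, and a median of 0.02. At an unadjusted p under 0.05 in limma there were 9, against 12.4% of all genes. Of the 119, 1 was lower with the block (2.82% of all genes) and 1 by DESeq2 (2.61%).

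The best known nucleolar proteins and the regulator Myc were followed as well. Myc was at 381 and 188 CPM for Mx, 657 and 432 for Flt3ITD, and 401 and 335 for NPMc_Flt3ITD, with replicate 1 the higher in every genotype (log2 fold change of Flt3ITD against Mx 0.99, limma adjusted p = 0.119, with the block 0.00286). Npm1, nucleophosmin itself, was at 1239 and 1594 CPM for Mx, 1793 and 2336 for Flt3ITD, and 1380 and 1691 for NPMc_Flt3ITD (0.54, adjusted p = 0.259, with the block 0.0161). Both genes were highest in the Flt3ITD libraries and passed only with the block. In NPMc_Flt3ITD against Flt3ITD neither passed in either fit, with adjusted p-values with the block of 0.0515 for Myc and 0.0590 for Npm1.

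Ncl, nucleolin, was at 777 and 918 CPM for Mx, 1015 and 1442 for Flt3ITD, and 715 and 878 for NPMc_Flt3ITD (0.52, limma adjusted p = 0.236, with the block 0.0173). Fbl, fibrillarin, the methyltransferase of box C/D particles, was at 42.2 and 122 CPM for Mx, 151 and 208 for Flt3ITD, and 61.5 and 116 for NPMc_Flt3ITD (1.29, adjusted p = 0.140, with the block 0.00273). Fbl is also counted above among the other small subunit factors. With the block both were also lower in NPMc_Flt3ITD than in Flt3ITD (0.0128 for Ncl and 0.00984 for Fbl), and for all 4 genes NPMc_Flt3ITD overlapped with Mx.

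The product of the polymerase, the precursor transcript Rn45s, accounted for 25.1% and 15.7% of reads for Mx, 21.3% and 18.7% for Flt3ITD, and 22.8% and 21.7% for NPMc_Flt3ITD. The libraries were made from polyadenylated RNA, so this is not a measure of rRNA output. The Flt3ITD shares lay between those of the Mx libraries, and the interval of the log2 fold change (-8.39 to 8.64) was too wide to read.

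Other gene lists moved with the same comparisons, and their part in the members' values was not tested. The 18 genes of a cell cycle list summed to 2414 and 2331 CPM for Mx, 4102 and 3376 for Flt3ITD, and 2237 and 2239 for NPMc_Flt3ITD. In Flt3ITD against Mx 8 of them rose (16 with the block), where 2.12% of all genes were called higher (10.3% with the block). In NPMc_Flt3ITD against Flt3ITD 6 fell (17 with the block), where 0.901% of all genes were called lower (7.07% with the block). The cell cycle list was thus highest in both Flt3ITD libraries, as the members were.

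The 11 erythroid genes summed to 428 and 337 CPM for Mx, 2616 and 2376 for Flt3ITD, and 267 and 128 for NPMc_Flt3ITD. Of the 10 tested, 6 rose in Flt3ITD against Mx (9 with the block) and 7 fell in NPMc_Flt3ITD against Flt3ITD (9 with the block). Over all genes, 2.12% were called higher in Flt3ITD against Mx (10.3% with the block). In NPMc_Flt3ITD against Flt3ITD, 0.901% of all genes were called lower (7.07% with the block). The late erythroid genes Alas2 and Slc4a1 were at most 3.49 and 0.697 CPM in any library. Of 10 LT-HSC markers 5 fell in Flt3ITD against Mx (6 with the block), and 2 fell in NPMc_Flt3ITD against Mx (6 with the block). The matching shares of all genes called lower were 2.43% (8.21% with the block) and 0.656% (2.82% with the block).

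Most markers of B and plasma cells had lower means in both mutant groups than in Mx. Of 9 tested, 4 fell in Flt3ITD against Mx (8 with the block, and 1 rose with it), with a median log2 fold change of -2.96. Over all genes 2.43% were called lower (8.21% with the block, and 10.3% higher with it). The libraries of 8 did not overlap, all lower in Flt3ITD, against 27.3% of all genes. In NPMc_Flt3ITD against Mx 2 fell (7 with the block), with a median of -2.90, where 0.656% of all genes were called lower (2.82% with the block). The list of 10 summed to 86.1 and 427 CPM for Mx, 47.9 and 267 for Flt3ITD, and 49.9 and 307 for NPMc_Flt3ITD, which is higher in replicate 2 of every genotype and holds Igj at up to 242 CPM. Ebf1, an early B cell factor, was at 0 in both Flt3ITD libraries.

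Other lists had fewer calls in Flt3ITD against Mx. Of 7 T and NK cell genes tested 1 rose and 1 fell (1 and 3 with the block), of 12 neutrophil and monocyte genes 2 rose with and without the block, and of 16 immediate early and stress genes 3 fell (6 with the block, and 1 rose with it). Over all genes 2.12% were called higher and 2.43% lower (10.3% and 8.21% with the block). The T and NK cell list summed to 89.3 and 130 CPM for Mx, 252 and 186 for Flt3ITD, and 319 and 310 for NPMc_Flt3ITD, most of it from Nkg7.

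**Figure D5:**
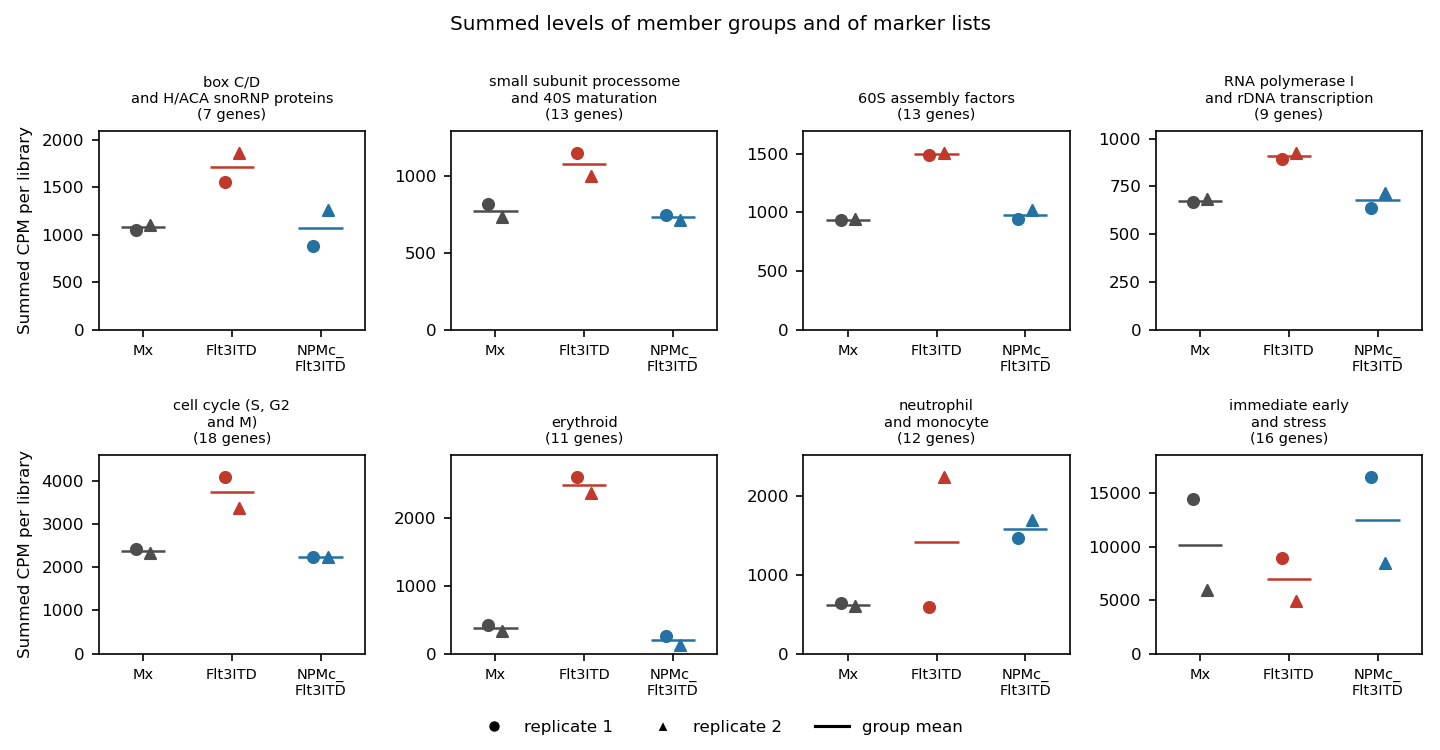
Summed CPM per library for the 4 role groups of members (top) and for 4 marker lists (bottom), with circles for replicate 1, triangles for replicate 2 and lines for group means; all axes start at 0. The role groups, the cell cycle list and the erythroid list are highest in both Flt3ITD libraries, whereas the neutrophil and monocyte list (592 and 2249 CPM in Flt3ITD) and the immediate early list (8933 and 4946 CPM) differ between the replicates.

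Reads that fall where genes overlap are a limit for some members. The exons of 15 members overlap those of a gene on the opposite strand in the GENCODE M21 annotation, among them Nhp2 (44 bases with Rmnd5b), Rrp9 (20 bases with Parp3), Gnl3 (15 bases with Pbrm1) and Bysl (361 bases with Ccnd3). The strand setting of the counting is not stated in the sources at hand, so reads of such pairs cannot be told apart there. Exons of Gnl3, Nop56, Nop58 and Taf1d also overlap small RNA genes on the same strand, which no strand setting would separate. Mrto4 has named pseudogenes, and how multiply matching reads were counted is not given. The part of these overlaps and copies in the members' values was not tested.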

How the data were processed

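The authors deposited 1 table with a signal value per gene and library, a normalised CPM from edgeR, per the file headers. The submitters' processing notes name CASAVA 1.8 and SAMtools 0.1.18, the aligners TopHat2 2.1.0 and Bowtie2 2.2.4, the counter HTSeq 0.6.1p1, edgeR 3.20.7 and the build mm9. Which annotation and strand setting were used, and how multiply matching reads were counted, is not given in the sources used here. As column sums are unequal, the values were scaled by effective rather than raw library sizes. Of the values, 100% were whole multiples of 1 read within 0.01 reads, which gave back the reads. Amplified reads without molecular identifiers are not independent molecules.

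A gene was tested where 2 or more libraries reached 1 CPM (12657 kept, 5340 removed). limma 3.58.1 with an intensity trend was fitted in R 4.3.3 to log2(CPM + 1) of all 6 libraries, with group as the only term, and two-sided p-values were adjusted by Benjamini-Hochberg over all 12657 genes. Fold changes are on this scale and understate changes of low genes. The fit had 3 residual and 8.67 moderated degrees of freedom. It was also run on simulated reads drawn without a replicate effect, and the outcome is not given here. That run did not include the blocked fit. edgeR 4.0.16 and DESeq2 1.42.0 were run on the recovered reads.

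Replicate numbers are shared by the groups. Deviations of same-numbered libraries from their group means correlated at 0.259, 0.316 and 0.341 across genes, so the numbers were taken to pair the libraries. This was read from the values, as the labels do not say what a number shares. Results of the blocked fit are printed beside members and lists whose calls changed in a comparison described.

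The members, the roles, the other lists and the motifs were chosen with earlier results of these data known. Genes were named where a member passed in any comparison, had the smallest p of its role, or changed its call with the block, with up to 4 further pathway genes per comparison and Myc, Npm1, Ncl, Fbl and Rn45s throughout. Other members named in the report (among them the catalytic and shared polymerase subunits, Taf1d, Tcof1 and Noc3l) were chosen after their values were seen. Transcript lengths are of the principal transcript in GENCODE M21, and promoters are from RefSeq on GRCm38.p6. As these builds differ from mm9, they were matched by symbol.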

Additional observations from a re-analysis of the deposited data

How the results depend on the processing

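The members' median log2 fold change kept its sign in every setting in Flt3ITD against Mx and in NPMc_Flt3ITD against Flt3ITD (-0.67 to -0.52), while the number of calls moved. In Flt3ITD against Mx the 5 calls became 3 with a pseudocount of 0.25 and 3 with scaling to the column totals, 2 with scaling to the totals without Rn45s, 0 without a filter on low values, 0 without the trend and 0 by edgeR. They became 22 with the replicate block and 14 by DESeq2, and 0 to 2 when each library was left out in turn. A pseudocount of 4 gave 6. The cause of these moves was not tested. Leaving out a library leaves fewer samples and an arm with a single library that is assumed to vary like the others. The members' median log2 fold change stayed between 0.39 and 0.58 in these settings. Scaling to the totals moved the median of all genes to -0.10 (-0.11 without Rn45s), and the members' median to 0.40 (0.39). In NPMc_Flt3ITD against Mx every setting gave 0 calls, and the median, near 0, ran from -0.14 with scaling to the totals to 0.02 without NPMc_Flt3ITD replicate 1. In NPMc_Flt3ITD against Flt3ITD the 0 calls became 23 with the replicate block and 11 by DESeq2, and stayed 0 when each library was left out.

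Single genes were recomputed only in the comparisons where a naming rule picked them. For members the rules were a call, a call changed by the block, or the smallest p of a role. Members near 0 in NPMc_Flt3ITD against Mx, such as Nop2 (-0.02), were not recomputed. The lack of sign changes among members thus follows in part from that choice. Among the gene values recomputed, signs changed only for the 5 genes followed throughout. When each library was left out in turn, the log2 fold change of NPMc_Flt3ITD against Mx ran from -0.06 (without Mx replicate 1) to 0.30 for Npm1, from -0.05 (without Mx replicate 2) to 0.96 for Myc, from -0.24 to 0.06 (without NPMc_Flt3ITD replicate 1) for Ncl, from -0.52 (without Mx replicate 1) to 0.99 for Fbl and from -0.13 (without Mx replicate 2) to 0.71 for Rn45s. The sign also changed without NPMc_Flt3ITD replicate 2 for Npm1 (-0.03) and Fbl (-0.22), without Mx replicate 2 for Ncl (0.03), and with scaling to the totals for Npm1 (-0.01). In Flt3ITD against Mx, Rn45s ran from -0.30 (without Mx replicate 2) to 0.54, and was -0.00 with scaling to the totals without Rn45s. Of the other values of single genes, 865 kept direction and side of the threshold, 67 passed only in the alternative and 77 only in the main setting. What a greater depth or more libraries would show was not tested.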
